A study of Mus musculus with 6 samples.

Results

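Transcripts of 8 genes of the tumour necrosis factor (TNF) superfamily were followed in mouse macrophages treated with a serotonin receptor agonist. The genes are the ligands Tnf, Tnfsf9, Tnfsf12, Tnfsf13, Tnfsf13b and Tnfsf14 and the TNF receptors Tnfrsf1a and Tnfrsf1b, chosen by gene symbol among 28822 gene identifiers. All 8 were in the table and all 8 passed the filter on low counts. There were 3 libraries from co-culture with BW723C86, an agonist of the 5-HT2B receptor, and 3 from co-culture with its vehicle, DMSO. In both groups the sequenced cells were, per the series title, bone marrow-derived macrophages (BMDMs, macrophages grown from bone marrow precursors), taken from the upper insert of a Transwell, a pair of chambers joined by a porous membrane. The lower chamber of both groups held HT22 cells, a mouse hippocampal neuronal line, after 2 h of oxygen-glucose deprivation as a model of ischaemia. The design text allows BV2 microglia in place of BMDMs and the sample labels name BMDM together with HT22. Mouse strain, sex, age, drug dose, treatment time and the number of separate cultures were not found in the labels. The p-values therefore reflect the spread among these libraries, part or all of which may be technical.

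TNF superfamily ligands are mostly trimeric proteins made in the membrane, many of which are cut off by proteases and then act as soluble cytokines. Their receptors recruit TRAF adaptor proteins, and those with a death domain also recruit TRADD or FADD, so that the same family carries signals for NF-kB activation, survival and cell death. Macrophages are a main source of TNF, and they also make BAFF and APRIL, which sustain B cells and plasma cells, and TWEAK, which acts on cells under repair. Bulk RNA cannot tell fewer cells of a type from less RNA per cell.

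With BW723C86 the ligand transcripts moved apart while Tnf itself was not called. Tnfsf14 was 6.23-fold lower and Tnfsf9 3.31-fold lower, whereas Tnfsf13 was 1.58-fold and Tnfsf12 1.29-fold higher. Of the receptors, Tnfrsf1b was 1.22-fold higher and Tnfrsf1a had a log2 fold change of -0.00041. By edgeR's quasi-likelihood test with Benjamini-Hochberg adjustment over all 15567 genes tested, 3 of the 8 rose, 2 fell and 3 did not pass an adjusted p of 0.05. The share called was 62.5% of the 8, against 42% of all genes tested, of which 21.3% were higher and 20.7% lower. Over all genes 3319 were higher and 3215 lower, and with libraries scaled by total counts alone 2581 were higher and 4124 lower. BW723C86 library 2 stood apart from the others of its group (chi-square per degree of freedom 8.84 and 6.06, against 2.45 to 2.76 for the other pairs within groups). Without it 7153 genes were called, and of the 8 genes again 3 were higher and 2 lower. At least 2-fold changes were called for 2 of the 8 and for 8.45% of all genes tested. Both were more than 3-fold lower, as were 2.29% of all genes tested. The median log2 fold change of the 8 was -0.07 and that of all tested genes 0.00, and the median size of the change was 0.39 and 0.27.

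The upstream sequence is shown for the ligand with the largest change, for Tnf, which was not called, and for the receptor that rose. Each is the 250 bases before the RefSeq transcription start, in the GRCm38.p6 build and on the minus strand, at chr17:57194182-57194431 for Tnfsf14, chr17:35202008-35202257 for Tnf and chr4:145246871-145247120 for Tnfrsf1b. Capitals mark matches, on either strand, to TGANTCA (AP-1), GAGGAA (the core bound by PU.1 and other ETS factors), TATAAA (the TATA box) and GGGCGG (Sp1), and no matches overlap here.
Tnfsf14: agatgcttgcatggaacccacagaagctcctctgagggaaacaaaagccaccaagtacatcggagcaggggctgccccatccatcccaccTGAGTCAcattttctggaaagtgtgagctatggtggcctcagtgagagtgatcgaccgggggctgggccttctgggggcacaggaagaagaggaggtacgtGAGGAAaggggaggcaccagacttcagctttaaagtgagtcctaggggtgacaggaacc
Tnf: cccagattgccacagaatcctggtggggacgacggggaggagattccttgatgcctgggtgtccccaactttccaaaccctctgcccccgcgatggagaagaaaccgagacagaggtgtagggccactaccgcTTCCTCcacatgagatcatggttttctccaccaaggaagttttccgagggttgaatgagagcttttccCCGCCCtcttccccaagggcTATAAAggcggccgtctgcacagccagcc
Tnfrsf1b: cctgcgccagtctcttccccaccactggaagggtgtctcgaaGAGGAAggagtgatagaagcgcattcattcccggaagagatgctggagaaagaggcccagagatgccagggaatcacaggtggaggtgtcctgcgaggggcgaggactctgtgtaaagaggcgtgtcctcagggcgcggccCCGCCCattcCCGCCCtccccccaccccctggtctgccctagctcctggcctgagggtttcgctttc
The Tnfsf14 window held an AP-1 match at -160 to -154 and a GAGGAA at -59 to -54, counted from the start. The Tnf window held a TATA box at -29 to -24, an Sp1 match at -49 to -44 and a GAGGAA on the opposite strand at -117 to -112. The Tnfrsf1b window held a GAGGAA at -208 to -203 and Sp1 matches at -67 to -62 and -57 to -52. Among 32841 RefSeq promoter windows of that length, 6.75% held the AP-1 motif, 23.3% GAGGAA, 12.4% the TATA box and 32.7% the Sp1 motif. The NF-kB consensus, held by 7.25% of windows, was in none of the 3 sequences as printed. Promoter entries were matched for 6 of the 8 genes, all but Tnfsf9 and Tnfsf12. Among the windows not shown, that of Tnfsf13, which rose, held the same AP-1 match, TGAGTCA, at -133 to -127. A window of Tnfsf13b, which was not called, held it at -127 to -121. The other window of Tnfsf13b and that of Tnfrsf1a had no AP-1 match.

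Levels are given as CPM, edgeR's count scaled to the effective size of the library. Tnfsf14 (ENSMUSG00000005824) encodes LIGHT, a ligand of the lymphotoxin beta receptor and of HVEM that is best known from activated T cells and myeloid cells. It stood at 4.88, 6.26 and 5.81 CPM in BW723C86 libraries 1 to 3, against 35.2, 36.5 and 34.2 CPM in DMSO libraries 1 to 3. The groups were far apart, and the highest BW723C86 library was below the lowest DMSO library. The mean was 5.65 ± 0.7 CPM with BW723C86 and 35.3 ± 1.16 CPM with DMSO (SD, n = 3 each), a log2 fold change of -2.64 (SE 0.09, 95% interval -2.84 to -2.44, edgeR adjusted p = 1.7e-10). Of all genes tested, 0.919% fell as far or farther.

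Tnfsf9 (ENSMUSG00000035678) encodes 4-1BBL, the ligand of the T cell co-stimulator 4-1BB, and can also signal back into the myeloid cell that carries it. Its libraries read 6.58, 5.77 and 6.35 CPM with BW723C86, against 21.1, 20.3 and 20.4 CPM with DMSO. Again every BW723C86 library lay below every DMSO library. The log2 fold change was -1.73 (SE 0.09, 95% interval -1.92 to -1.54, edgeR adjusted p = 5.1e-09), and 2.26% of all genes tested fell as far or farther. A non-coding gene on the opposite strand, Gm11110, overlaps 192 of its 1290 annotated exon bases. The sources do not say whether strand was used in counting, so reads of this stretch may be shared. Gm11110 had 2.87 ± 0.45 CPM with BW723C86 and 3.64 ± 0.334 CPM with DMSO (SD, n = 3 each) and was not called (log2 fold change -0.34, edgeR adjusted p = 0.14).

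Tnf (ENSMUSG00000024401), the founding cytokine of the family, had 15.1, 16.3 and 17.2 CPM in the BW723C86 libraries and 17.6, 18.5 and 17.1 CPM in the DMSO libraries. The groups overlapped, since BW723C86 library 3 was above DMSO library 3. The log2 fold change was -0.13 (SE 0.08, 95% interval -0.30 to 0.04, edgeR adjusted p = 0.22), so that the interval does not reach a 2-fold change in either direction. The change in Tnfsf14 is given on the same scale, and their 95% intervals do not overlap.

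Tnfsf13 (ENSMUSG00000089669) encodes APRIL, a survival factor of plasma cells. Its level was 39.9, 35.6 and 42 CPM with BW723C86, against 23.6, 25.8 and 25 CPM with DMSO, with no overlap between groups. The log2 fold change was 0.66 (SE 0.07, 95% interval 0.50 to 0.82, edgeR adjusted p = 8.6e-06). Tnfsf12 (ENSMUSG00000097328) encodes TWEAK, the ligand of the receptor Fn14. It read 63.9, 61.8 and 66.9 CPM with BW723C86, against 52.3, 48.1 and 48.7 CPM with DMSO. All BW723C86 libraries were higher, at a log2 fold change of 0.37 (SE 0.06, 95% interval 0.25 to 0.49, edgeR adjusted p = 0.00016). When the null was set at a 1.2-fold change, a stricter rule that 20.6% of all genes tested passed, Tnfsf12 had an adjusted p of 0.054 (4.3e-08 to 0.054 over its 17 alternatives).

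Tnfsf12 and Tnfsf13 are neighbours on the same strand, and a read-through gene, Tnfsfm13 (TWE-PRIL), joins them. It overlaps 731 of the 1515 exon bases of Tnfsf12 and 983 of the 1637 exon bases of Tnfsf13, so how the reads were split between the genes is uncertain. Tnfsfm13 itself had 94.7 ± 6.39 CPM with BW723C86 and 66.5 ± 4 CPM with DMSO (SD, n = 3 each), a log2 fold change of 0.51 (SE 0.06, edgeR adjusted p = 2.2e-05). With the counts of all 3 genes summed, a choice made after the data were seen, the region had 203, 185 and 207 CPM with BW723C86, against 147, 137 and 139 CPM with DMSO. The summed region rose by a log2 fold change of 0.49 (SE 0.05, edgeR adjusted p = 7e-06). Tnfsf13 took 19.3% to 20.3% of the region's counts with BW723C86 and 16% to 18.7% with DMSO, and Tnfsf12 took 31.5% to 33.4% with BW723C86 and 35% to 35.6% with DMSO. If each read was counted for a single gene, the summed region does not depend on how reads were split, while the separate values of its genes do. The sources do not state how reads of shared bases were counted. The antisense gene Tnfsf13os, which overlaps 221 exon bases of Tnfsf13, had 1.88 ± 0.535 CPM with BW723C86 and 1.35 ± 0.348 CPM with DMSO (SD, n = 3 each).

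Tnfsf13b (ENSMUSG00000031497) encodes BAFF, the B cell survival factor that shares receptors with APRIL. It was low in every library, at 2.9, 2.82 and 2.96 CPM with BW723C86 and 3.58, 3.42 and 4.48 CPM with DMSO. The libraries of the groups did not overlap, yet Tnfsf13b missed the threshold (log2 fold change -0.41, SE 0.16, 95% interval -0.76 to -0.05, edgeR adjusted p = 0.066). Groups without overlap were seen for 6 of the 8 genes and for 52.3% of all genes tested. DMSO library 3 was the highest, and without it the log2 fold change of Tnfsf13b was -0.28. With libraries scaled by total counts alone, Tnfsf13b passed (log2 fold change -0.48, edgeR adjusted p = 0.033, and 0.033 to 0.27 over its 17 alternatives). The within-library log2 ratio of Tnfsf13b to Tnfsf13 was -3.77, -3.64 and -3.81 with BW723C86, against -2.71, -2.90 and -2.47 with DMSO. The ratio was lower in every BW723C86 library than in any DMSO library (mean difference -1.05, p = 0.1 by a two-sided exact permutation test, the lowest value 3 libraries a group can give). It depends on how reads were split between Tnfsf13 and Tnfsfm13.

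The TNF receptors were the most abundant of the 8 in both groups. Tnfrsf1b (ENSMUSG00000028599) encodes TNFR2, which has no death domain and answers best to membrane TNF. It had 676, 629 and 659 CPM with BW723C86, against 527, 543 and 538 CPM with DMSO. Every BW723C86 library was higher, with a log2 fold change of 0.29 (SE 0.04, 95% interval 0.19 to 0.38, edgeR adjusted p = 0.00017). It did not pass against a fold change of 1.2 (adjusted p = 0.34, and 4.8e-11 to 0.34 over its 18 alternatives). Tnfrsf1a (ENSMUSG00000030341) encodes TNFR1, the death domain receptor that answers to soluble TNF in most cells. It had 214, 198 and 211 CPM with BW723C86 and 208, 211 and 203 CPM with DMSO, and the groups lay over each other. Its 95% interval ran from -0.10 to 0.10 in log2 fold change (edgeR adjusted p = 1).

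The balance of the receptors could be read within each library, free of the scaling. The log2 ratio of Tnfrsf1b to Tnfrsf1a was 1.66, 1.67 and 1.64 with BW723C86, against 1.34, 1.36 and 1.40 with DMSO. There was no overlap, and the difference of 0.29 was larger than the spread within either group (SD 0.013 with BW723C86 and 0.033 with DMSO, n = 3 each, two-sided exact permutation p = 0.1, the smallest possible). Since 2 ratios were tested, the adjusted p was 0.1 for each.

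**Figure D1:**
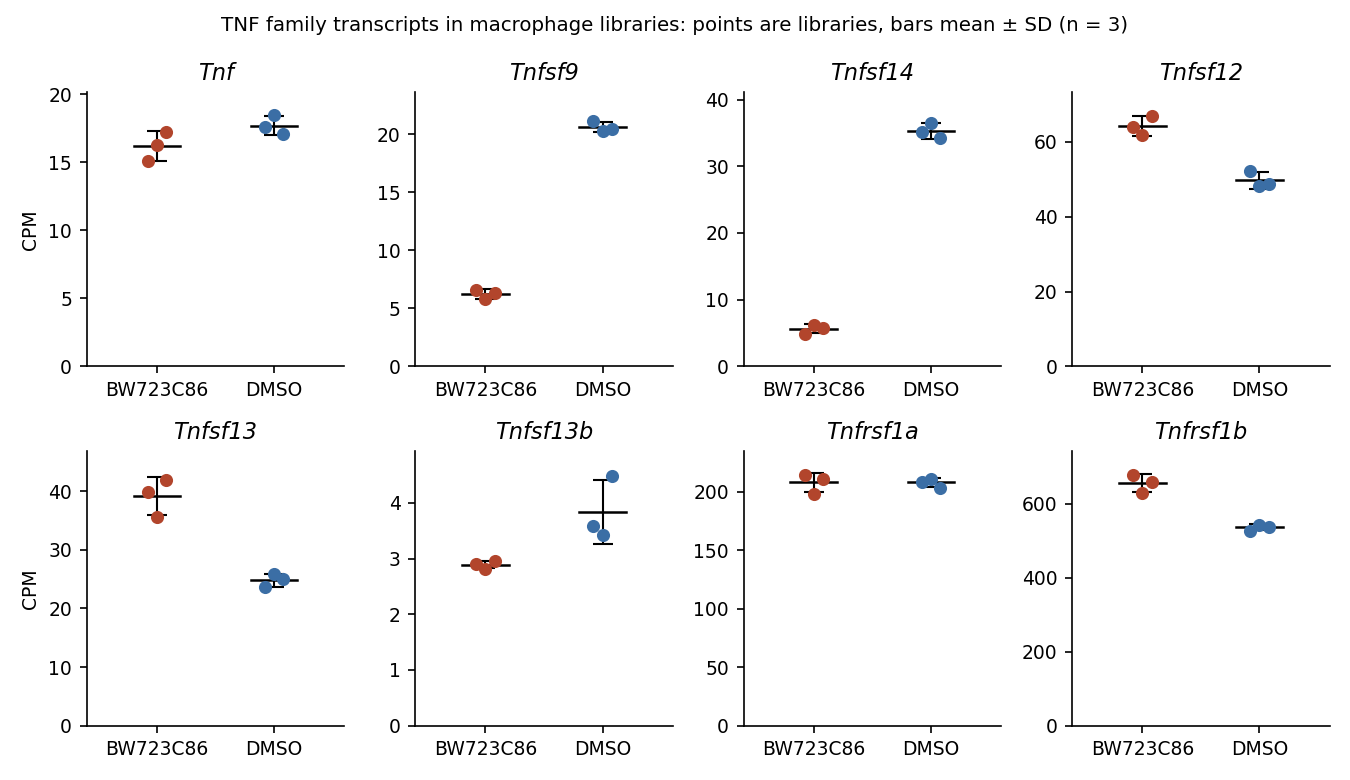
CPM of each of the 8 genes in the 3 BW723C86 libraries (red) and the 3 DMSO libraries (blue), with bars for the mean ± SD and every axis starting at 0. Tnfsf14 and Tnfsf9 sit far lower with BW723C86 (means of 5.65 and 6.23 CPM, against 35.3 and 20.6 CPM with DMSO), Tnfsf12, Tnfsf13 and Tnfrsf1b sit higher, and the libraries of Tnf and Tnfrsf1a overlap.

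To compare levels between genes, CPM was divided by the annotated exon length in kilobases. On that scale Tnfrsf1b led in both groups, with means of 172 CPM per kb in BW723C86 and 140 CPM per kb in DMSO libraries, followed by Tnfrsf1a at 80.1 CPM per kb in each. Among all genes tested, Tnfrsf1b stood at the 97.9 percentile and Tnfrsf1a at the 96.1 percentile of mean CPM per kb over the 6 libraries. Tnfsf12 came next, at 42.4 CPM per kb with BW723C86 and 32.8 CPM per kb with DMSO, although its length is shared with Tnfsfm13.

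Below these the order of the ligands differed. With BW723C86 it was Tnfsf13 (23.9 CPM per kb), Tnf (9.88), Tnfsf9 (4.83), Tnfsf14 (3.06) and Tnfsf13b (0.421), and no neighbours in that order had overlapping libraries. With DMSO it was Tnfsf14 (19.1 CPM per kb), Tnfsf9 (16), Tnfsf13 (15.1), Tnf (10.8) and Tnfsf13b (0.557). There the libraries of Tnfsf9 and Tnfsf13 overlapped, so that their order is not settled. In both groups the place of Tnfsf13 also depends on how reads were split with Tnfsfm13, which overlaps 983 of its 1637 exon bases. With reads split as in the deposited counts, Tnfsf14 had rank 7 of the 8 genes with BW723C86 and rank 4 with DMSO.

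**Figure D2:**
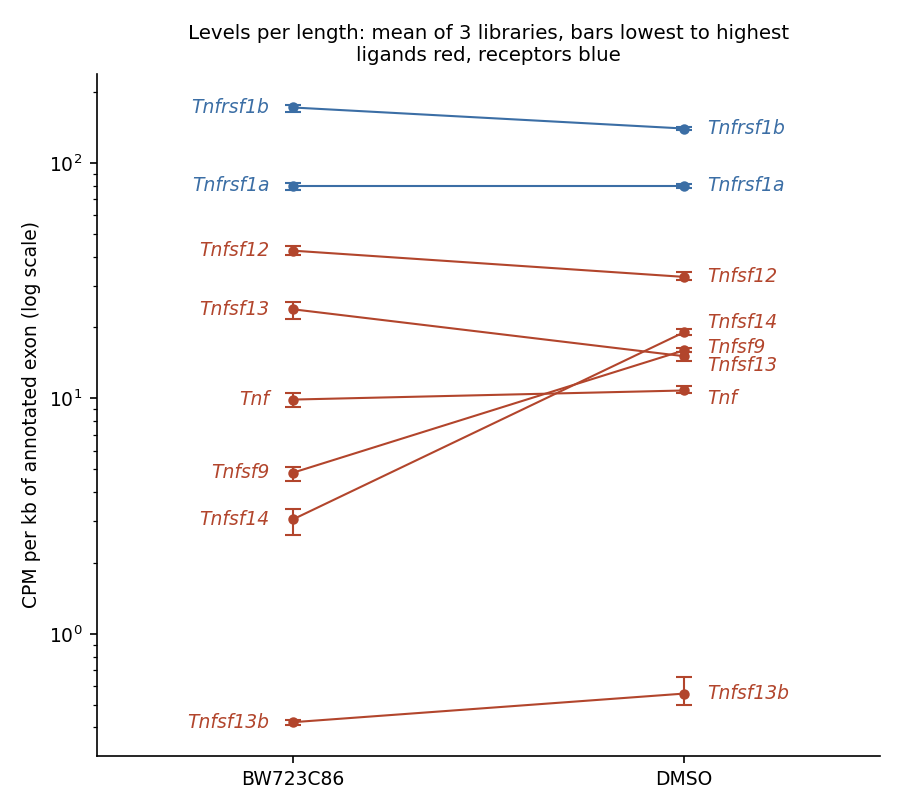
Mean CPM per kb of annotated exon on a log axis for the 8 genes with BW723C86 (left) and DMSO (right), with bars from the lowest to the highest of 3 libraries. Tnfsf14 and Tnfsf9 lie below Tnf with BW723C86 (3.06 and 4.83 against 9.88 CPM per kb) and above it with DMSO (19.1 and 16 against 10.8 CPM per kb), and the receptors lead in both groups.

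The other ligands of the superfamily were read from a list of 12 genes, of which 6 were high enough to test. Of these 6, 2 rose, 2 fell and 2 were not called, a share called of 66.7% against 42% of all genes tested. Ltb, encoding lymphotoxin beta, was 5.91, 4.75 and 5.32 CPM with BW723C86, against 18.6, 16.9 and 17.8 CPM with DMSO (log2 fold change -1.74, SE 0.10, edgeR adjusted p = 2.4e-08). Lta, encoding lymphotoxin alpha, went the other way, at 10.4, 7.73 and 10.3 CPM with BW723C86, against 4.04, 3.23 and 2.67 CPM with DMSO (log2 fold change 1.51, SE 0.17, edgeR adjusted p = 1.2e-05). For both genes the groups were clearly separate. Lymphotoxin beta is bound at the membrane in a heterotrimer with lymphotoxin alpha, and lymphotoxin alpha on its own is secreted and binds the TNF receptors.

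Tnfsf4, encoding OX40 ligand, rose at a low level, with 4.05 ± 0.289 CPM with BW723C86 and 1.79 ± 0.134 CPM with DMSO (SD, n = 3 each, log2 fold change 1.17, edgeR adjusted p = 9.7e-05). Tnfsf15, encoding TL1A, fell in the same test (0.882 ± 0.177 CPM with BW723C86 and 1.48 ± 0.251 CPM with DMSO, log2 fold change -0.75, edgeR adjusted p = 0.039), a call held in 10 of its 17 alternatives (adjusted p = 0.024 to 0.16). The alternatives without the call included the test against a fold change of 1.2 and the replicate block (adjusted p = 0.060). The call was also lost without BW723C86 library 2 or 3 or DMSO library 1 or 3. Of the 6 ligands too low to test, Cd40lg and Tnfsf11 had no count in any library. Fasl, Cd70, Tnfsf18 and Eda had at most 13 counts in a library.

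Receptors for the 6 ligands were set beside them. Tnfrsf9, encoding 4-1BB, the receptor of Tnfsf9, had 16.4, 12.3 and 14.9 CPM with BW723C86, against 51.5, 55.4 and 51.1 CPM with DMSO. It fell as its ligand did, with a log2 fold change of -1.86 (SE 0.09, edgeR adjusted p = 3.8e-09). The receptors of Tnfsf14 were not called. Ltbr, encoding the lymphotoxin beta receptor, stood at 85.2 ± 7.73 CPM with BW723C86 and 76.4 ± 3.6 CPM with DMSO (SD, n = 3 each, log2 fold change 0.16, 95% interval 0.02 to 0.30, edgeR adjusted p = 0.071). It was called in 3 of its 18 alternatives (adjusted p = 0.0011 to 1), and without BW723C86 library 2 it reached 0.22. Tnfrsf14, encoding HVEM, stood at 5.5 ± 1.27 CPM with BW723C86 and 5.88 ± 0.615 CPM with DMSO (SD, n = 3 each, log2 fold change -0.10, 95% interval -0.45 to 0.26, edgeR adjusted p = 0.68).

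Tnfrsf12a, encoding Fn14, the receptor of TWEAK, was not called either (7.38 ± 0.144 CPM with BW723C86 and 8.38 ± 1.5 CPM with DMSO, SD, n = 3 each, log2 fold change -0.18, 95% interval -0.46 to 0.10, edgeR adjusted p = 0.30). Tnfrsf13b, encoding TACI, which binds both BAFF and APRIL, had 50.4 ± 3.92 CPM with BW723C86 and 46.6 ± 0.873 CPM with DMSO (SD, n = 3 each, log2 fold change 0.11, 95% interval -0.02 to 0.25, edgeR adjusted p = 0.17). Tnfrsf13c, encoding the BAFF receptor of B cells, rested on counts of 0, 6 and 8 with BW723C86, against 35, 27 and 48 with DMSO. It fell in the test (log2 fold change -2.75, SE 0.73, edgeR adjusted p = 0.0087), and without BW723C86 library 3 the log2 fold change was -3.45, so that its size is uncertain at such counts. Tnfrsf17, encoding BCMA, had 6 counts in BW723C86 library 1 and none elsewhere.

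In all, of 26 other receptor genes, 25 were in the table and 20 were tested, with 2 higher, 6 lower and 12 not called. That share of 40% stood beside 42% for all genes tested. At 5 CPM in 3 libraries, 8 of 13 were called, beside 55.4% of all genes. Tnfrsf11a, encoding the osteoclast receptor RANK, rose (log2 fold change 0.65, SE 0.08, edgeR adjusted p = 2.1e-05). So did Tnfrsf26 (0.32, SE 0.05, edgeR adjusted p = 0.00031), a mouse receptor gene with close paralogs that may share its reads, which was not called against a 1.2-fold change. Fas, encoding the death receptor, fell to 13.1 ± 0.787 CPM with BW723C86, against 21.3 ± 0.095 CPM with DMSO (SD, n = 3 each, log2 fold change -0.70, edgeR adjusted p = 9.7e-06). Relt, encoding a TNF receptor-like protein of blood cells, fell to 40 ± 5.13 CPM, against 55.6 ± 1.85 CPM with DMSO (SD, n = 3 each, log2 fold change -0.48, edgeR adjusted p = 0.00032).

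**Figure D3:**
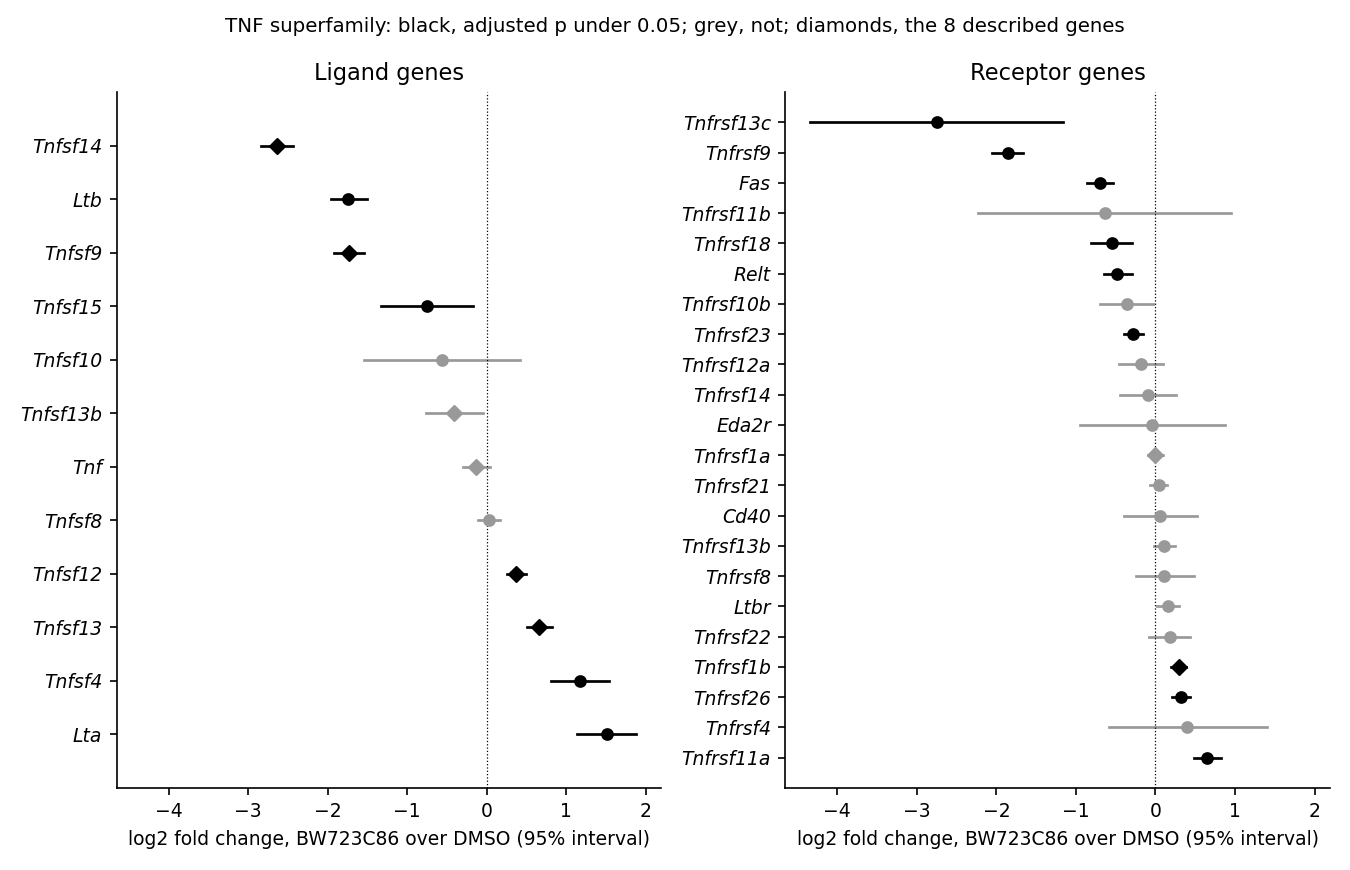
Log2 fold change of each tested TNF superfamily ligand (left) and receptor (right), BW723C86 over DMSO, with 95% intervals, black where the adjusted p was under 0.05 and grey where it was not, and diamonds for the 8 genes. Ligands spread from -2.64 (Tnfsf14) to 1.51 (Lta), while among receptors only Tnfrsf9 and the scarce Tnfrsf13c were called at 2-fold or more.

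Genes that carry the signal from TNF receptors mostly changed little. Of 30 tested, 8 rose, 10 fell and 12 were not called (60%, against 42% of all genes tested), with 5 higher and 13 lower under scaling by total counts alone. At 5 CPM in 3 libraries all 30 were kept and 19 were called, against 55.4% of all genes at that level. None of the 30 was called at 2-fold or more, the median size of the log2 fold change being 0.23. Traf5, encoding an adaptor of several family receptors, rose to 21.9 ± 1.61 CPM with BW723C86, against 11.2 ± 0.659 CPM with DMSO (SD, n = 3 each, log2 fold change 0.97, edgeR adjusted p = 1.2e-06). Traf2, encoding the adaptor shared by TNFR1 and TNFR2, fell to 17.6 ± 1.31 CPM, against 26.7 ± 1.13 CPM with DMSO (SD, n = 3 each, log2 fold change -0.60, edgeR adjusted p = 3.2e-05). Birc3, encoding the ubiquitin ligase cIAP2, and Map3k5, encoding the stress kinase ASK1, fell by 0.67 and 0.73 on the log2 scale. Mlkl, encoding the effector of necroptosis, and Ikbkg, encoding the NF-kB scaffold NEMO, rose by log2 fold changes of 0.39 and 0.32. Neither passed against a fold change of 1.2 (adjusted p = 0.071 and 0.17, with 8.7e-05 to 0.071 and 1.3e-06 to 0.17 over 18 alternatives).

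Of 9 genes for shedding and processing of ligands, 3 rose, 2 fell and 4 were not called (55.6%, against 42% of all genes tested), with 2 higher and 4 lower under scaling by total counts alone. At 5 CPM in 3 libraries, 4 of 7 were called, against 55.4% of all genes. Furin, encoding the convertase that cuts TWEAK, APRIL and BAFF, rose to 648 ± 35.2 CPM with BW723C86, against 431 ± 5.93 CPM with DMSO (SD, n = 3 each, log2 fold change 0.59, SE 0.05, edgeR adjusted p = 5.9e-07). Adam17, encoding the sheddase that releases TNF, was at 121 ± 7.83 CPM with BW723C86 and 129 ± 3.61 CPM with DMSO and was not called (SD, n = 3 each, log2 fold change -0.10, 95% interval -0.21 to 0.02, edgeR adjusted p = 0.16), although it passed in 2 of 18 alternatives, one of them without BW723C86 library 2 (adjusted p = 0.0015 to 1). Frmd8, encoding a stabiliser of the ADAM17 complex, rose (log2 fold change 0.28, edgeR adjusted p = 0.00069), though not against a 1.2-fold change. Adam10 fell (-0.16, edgeR adjusted p = 0.0096), as did Timp3, the ADAM17 inhibitor gene, from a low level (0.554 ± 0.103 CPM with BW723C86 and 1.16 ± 0.382 CPM with DMSO, SD, n = 3 each, edgeR adjusted p = 0.024). Sppl2b, encoding a protease that cuts TNF within the membrane, rose (0.22, edgeR adjusted p = 0.028). Without DMSO library 1 the list had 2 calls in place of 5, both higher, and Adam10 (adjusted p = 0.066), Timp3 (0.12) and Sppl2b (0.094) were no longer called. Without BW723C86 library 3, or without DMSO library 3, it had 3 calls. Over the 18, 17 and 18 alternatives their adjusted p ran from 0.00057 to 1, 0.0088 to 0.12 and 0.006 to 0.79.

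Genes that set the decay of Tnf mRNA changed in both directions. Of 12, 2 rose, 6 fell and 4 were not called (66.7%, against 42% of all genes tested). At 5 CPM in 3 libraries, 8 of 12 were called, against 55.4% of all genes. Zfp36, encoding tristetraprolin, which destabilises Tnf mRNA, rose to 115 ± 6.02 CPM with BW723C86, against 46.8 ± 1.19 CPM with DMSO (SD, n = 3 each, log2 fold change 1.29, SE 0.05, edgeR adjusted p = 6.2e-10). Its paralog Zfp36l1 fell to 85.1 ± 6.51 CPM, against 208 ± 3.79 CPM with DMSO (SD, n = 3 each, log2 fold change -1.29, SE 0.06, edgeR adjusted p = 1e-09). The third paralog, Zfp36l2, rose to 387 ± 17.7 CPM, against 307 ± 1.37 CPM (SD, n = 3 each, log2 fold change 0.34). Hnrnpd, encoding the AU-rich element binding protein AUF1, fell by 0.65 on the log2 scale, and Mapk14, encoding p38 alpha, by 0.29. Zfp36l2 and Mapk14 were not called against a 1.2-fold change.

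Genes that TNF is known to induce through NF-kB were mostly lower. Of 20 tested, 1 rose, 12 fell and 7 were not called (65%, against 42% of all genes tested), with a median log2 fold change of -0.26. These falls moved with those of monocyte markers (6 of 6 lower), neutrophil markers (8 of 8 tested lower) and lymphocyte markers (4 of 4 tested lower). The part of those cells in the falls was not tested. At 5 CPM in 3 libraries, 12 of 17 genes of this list were called, against 55.4% of all genes. Cxcl2, a neutrophil chemokine gene, fell to 2.24 ± 0.228 CPM with BW723C86, against 9.75 ± 0.941 CPM with DMSO (SD, n = 3 each, log2 fold change -2.12, edgeR adjusted p = 6.3e-08). Sod2, the mitochondrial superoxide dismutase gene, fell by 0.52 and Bcl3, an NF-kB cofactor gene, by 0.96 on the log2 scale. Icam1, encoding an adhesion molecule, was the exception that rose (169 ± 11.8 CPM with BW723C86 and 127 ± 3.14 CPM with DMSO, SD, n = 3 each, log2 fold change 0.41, edgeR adjusted p = 4.6e-05). Birc3, Traf1 and Tnfaip3 are on this list as well as on that of signalling genes, and Traf1 and Tnfaip3 were not called.

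**Figure D4:**
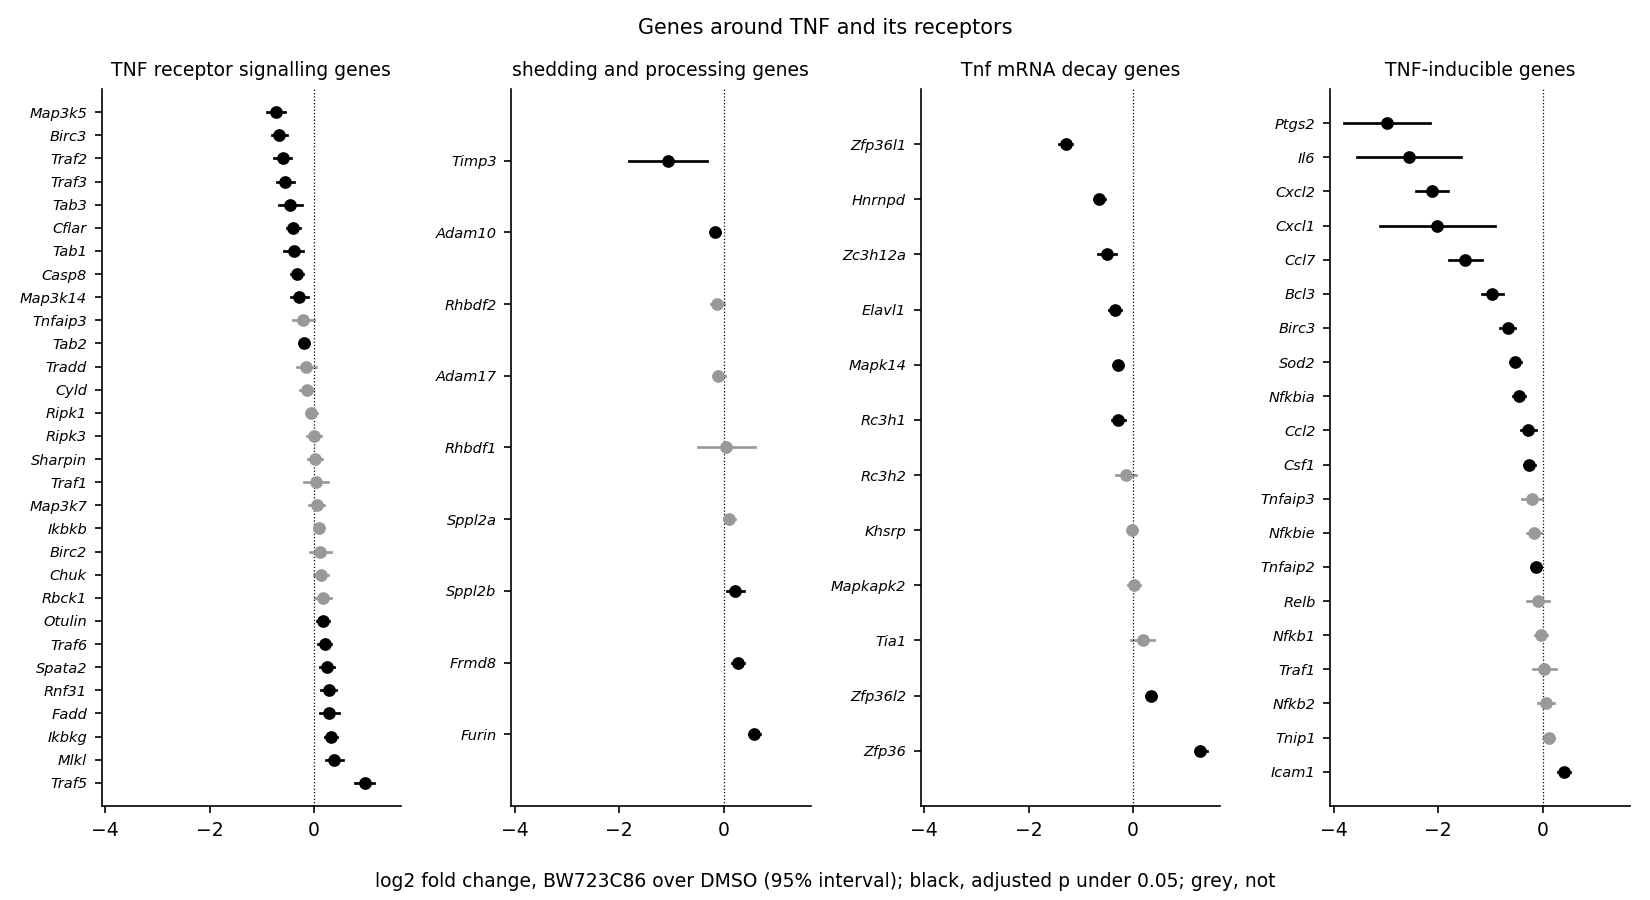
Log2 fold change, BW723C86 over DMSO, with 95% intervals for the tested genes of 4 lists, black where the adjusted p was under 0.05 and grey where it was not. Estimates of the signalling genes stay within 1 log2 unit of 0, though the interval of Traf5 reaches 1.15. Zfp36 (1.29) and Zfp36l1 (-1.29) stand at opposite ends of the decay list, and 12 of 20 TNF-inducible genes fell.

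Macrophage markers were present in all libraries, with sums of 32405 to 33586 CPM with BW723C86 and 37033 to 37886 CPM with DMSO over 8 genes, most of it Lyz2 (29407 ± 620 CPM with BW723C86 and 32877 ± 432 CPM with DMSO, SD, n = 3 each). The 8 did not move together, since 3 were higher, among them Mertk (log2 fold change 0.79) and Csf1r (0.53), and 4 were lower, among them Itgam (-1.10) and Adgre1 (-0.82). Summed over 6 genes, monocyte markers were 174 to 191 CPM with BW723C86 and 678 to 682 CPM with DMSO. Neutrophil markers, 10 genes, were 709 to 814 CPM with BW723C86 and 2603 to 2678 CPM with DMSO, most of it Mmp8 (716 ± 56.7 CPM with BW723C86 and 2417 ± 46.1 CPM with DMSO, SD, n = 3 each). Dendritic cell markers, 8 genes, summed to 2340 to 2493 CPM with BW723C86 and 507 to 518 CPM with DMSO, nearly all of it Itgax (2361 ± 79 CPM with BW723C86 and 471 ± 6.7 CPM with DMSO, SD, n = 3 each). Of these 8, 4 were called higher (Itgax, Cd209a, Zbtb46 and Clec9a), Ccr7 (log2 fold change -0.07) and Flt3 were not called, and Xcr1 and Siglech were too low to test. The falls of Tnfsf14, Tnfsf9 and Ltb moved with the falls of monocyte, neutrophil and lymphocyte markers (4 of 4 tested lower for lymphocytes). The part of those cells in these results was not tested. Lymphocyte markers summed to 1.68 to 1.94 CPM with BW723C86 and 5.89 to 8.04 CPM with DMSO over 9 genes, with at most 4 counts of Cd3e and 8 of Cd3d in any library. Mast cell markers, 6 genes in the table, summed to 54.8 to 59.6 CPM with BW723C86 and 96.3 to 104 CPM with DMSO. Most of that difference was Cpa3 (11.7 ± 1.45 CPM with BW723C86 and 51.6 ± 2.62 CPM with DMSO, SD, n = 3 each). Kit, at 44.9 ± 1.47 CPM with BW723C86 and 46.4 ± 2.02 CPM with DMSO (SD, n = 3 each), was not called. Of the 4 tested, 2 were lower and 2 not called. Neuronal markers of the kind that HT22 cells might bring were below 1 CPM for all 6 genes in the table, at 0 in all libraries for 2 of them, with sums of 0.222 to 0.401 CPM with BW723C86 and 0 to 0.141 CPM with DMSO.

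The genes whose pattern over the 6 libraries lay nearest to Tnfsf14, by root mean square distance of centred log2 CPM, were Sorl1 (0.08), Cyp4a12a (0.0888), whose near-identical relatives may share its reads, and Nxpe5 (0.109). Sorl1, encoding a sorting receptor, had 20.3 ± 1.32 CPM with BW723C86 and 118 ± 1.36 CPM with DMSO (SD, n = 3 each). Nearest to Tnfsf13 were Fuca1 (0.0318), encoding a lysosomal fucosidase, Tcirg1 (0.0397), encoding a subunit of the vacuolar proton pump, and Pak4 (0.0437), encoding a kinase. Tcirg1 had 433 ± 36.9 CPM with BW723C86 and 265 ± 7.54 CPM with DMSO (SD, n = 3 each).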

How the data were processed

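The deposited table holds estimated counts per gene for 3 BW723C86 and 3 DMSO samples, already whole, so rounding had no effect. Tools listed per the submitters' processing notes are edgeR, StringTie, HISAT2 and fastp, with GRCh38 and GRCm39 as builds and no version, role or order. Per the labels' protocols, poly(A) RNA went into dUTP-marked paired-end libraries. The value 4 occurs 4613 times, 3 occurs 2904 times and 5 occurs 2552 times, so that what a fragment is worth in counts is uncertain. Totals ran from 58841307 to 75931615 per library, and a floor of 3 counts equals 0.0386 to 0.0523 CPM, for counting error only. Within groups every pair of libraries differed by more than sampling noise (chi-square on counts divided by 4), and all were kept.

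Symbols (27005 of 28822 identifiers), exon lengths and overlaps came from GENCODE M21 and promoters and gene order from RefSeq, both on GRCm38, a different build from GRCm39, so the printed coordinates are RefSeq's. edgeR 4.0.16 in R 4.3.3 was used with TMM scaling, its default filter and a robust quasi-likelihood fit, two-sided, and the SE is the log2 fold change divided by the root of F. Checks on simulated counts were run. Alternatives tried were DESeq2 1.42.0, limma-voom 3.58.1, 3 other scalings, 2 other filters, a non-robust fit, counts divided by 4, a replicate block, each library left out and a test against a fold change of 1.2. Also counted, for genes outside the Tnfsf12 and Tnfsf13 region, was the fit with that region summed. It leaves the counts of those genes unchanged, so that their results could hardly differ. The genes and lists were chosen with earlier results of these data known. Named are all genes called in lists with 6 calls or fewer, otherwise the 3 of smallest p in each direction at a mean of 5 CPM or more, plus the ligands' receptors, Adam17 and the 3 most alike genes for the largest rise and fall. Tnfsfm13, the antisense genes and the genes too low to test were added after their values were seen.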

Additional observations from a re-analysis of the deposited data

How the results depend on the processing

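The signs and calls of Tnfsf9, Tnfsf13 and Tnfsf14 held in every alternative run on them (-1.80 to -1.69, 0.59 to 0.71 and -2.74 to -2.55 in log2 fold change), and Tnf was called in none of 18. Over the 8 genes and their alternatives, 133 values kept sign and call, and the others are given here or beside the result. The estimate of Tnfrsf1a lay on both sides of 0, with 0.0045 under upper-quartile scaling, 0.0041 at 5 CPM in 3 libraries, 0.0044 with counts divided by 4 and -0.025 to 0.016 with a library left out. That of Tnfrsf14 was -0.31 to 0.011 with a library left out, the highest without BW723C86 replicate 1. Against a fold change of 1.2, calls numbered 3208 over all genes, 3 of the 8 genes, 6 signalling, 1 shedding and 4 decay genes. At 5 CPM in 3 libraries 2 other ligands were called of 3 left to test, where 55.4% of all genes were called. With a library left out the shedding list had 2 to 6 calls. Without BW723C86 replicate 2, which stands apart, 22 signalling genes were called. Total-count scaling moved the median of all genes to -0.069 in log2 fold change, which is under 0.1. Same-numbered libraries did not deviate together (r = 0.031, -0.0247 and -0.00481), BW723C86 libraries 2 and 3 correlated better with another number, and the labels give no pairing. With the replicate block, 6179 genes in place of 6534 and 5 of the 8 genes were called, and the receptor log2 ratio difference was 0.289 with the smallest sign-flip p of 0.25. No sample group here is large enough for a test of outlying libraries, and low genes such as Tnfrsf13c rest on few fragments.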

Other observations

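On chromosome 17, Tnfsf9, Cd70 and Tnfsf14 follow each other in the RefSeq gene order, with C3 next to Tnfsf14. C3, encoding the central complement component, was also lower, at 259 ± 2.37 CPM with BW723C86 and 813 ± 9.69 CPM with DMSO (SD, n = 3 each, log2 fold change -1.65, edgeR adjusted p = 6.8e-12). The next genes outward were not called, with log2 fold changes of 0.06 for Trip10 and 0.13 for Gpr108 beyond C3. On the other side Tubb4a fell by 1.13 on the log2 scale and Dennd1c had -0.12, which was not called. On the same chromosome Tnf lies between Ltb and Lta, and its log2 fold change of -0.13 stands between -1.74 for Ltb and 1.51 for Lta. Lst1, a myeloid gene beside Ltb, fell to 3.57 ± 0.188 CPM with BW723C86, against 11.5 ± 0.902 CPM with DMSO (SD, n = 3 each, log2 fold change -1.69, edgeR adjusted p = 9.5e-08). Nfkbil1, beside Lta, had a log2 fold change of -0.15 and was not called. Farther out, Prrc2a was called higher (0.30) and Ddx39b lower (-0.34), while Aif1 and Atp6v1g2 were not called. The neighbouring genes were looked up after the values of the ligands were seen. Of all genes tested, 21.3% were called higher and 20.7% lower.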
